A study of Mus musculus with 4 samples.

Results

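Antigen presentation genes were followed as a group of 35 named mouse genes, out of 22480 gene symbols listed in the deposited tables. A gene was taken from the row whose symbols include its name, and from the row with the highest mean if there were several. The group was split into a class I side of 26 genes and a class II side of 9 genes, because class II transcripts are typical of professional antigen presenting cells and thus can mark other cell types. In the table of bulk and mammosphere cells 33 of the 35 genes had a row. In the table of shRNA cultures 20 had one, and these 20 also had a row in the first table. H2-L and H2-Q4 had no row under those symbols in either table.

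All RNA came from MMTV-Myc cells, a line from mouse mammary tumours driven by Myc, in which the MMTV promoter drives the transgene. Bulk cells (day 0) were wild type and grown with serum and insulin, and mammosphere cells (day 20) were wild type and grown unattached with EGF, bFGF and a supplement. The control culture carried an shRNA named shLuc in its genotype and shScr in its description, and the Cbx8 knockdown culture carried the shRNA sh68. Both came from lentiviral delivery and puromycin selection, and the sources used here do not give their growth format. Each of the 4 groups was 1 library of poly(A) RNA read as 100-nt single ends, so every difference below sets 1 library against another, with no replicate error and no test. FPKM means fragments per kilobase of transcript scaled to the mapped total, a unit scaled for length and depth, and the sequencing depth behind it is unknown.

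MHC class I molecules show peptides from inside a cell to CD8 T cells and natural killer cells. A heavy chain pairs with beta-2 microglobulin (B2m), and its peptides are cut by the proteasome, carried into the endoplasmic reticulum by the Tap1 and Tap2 transporter, trimmed by Erap1 and loaded with the help of tapasin (Tapbp). Class II molecules show peptides from taken-up material to CD4 T cells, with the invariant chain Cd74 as their chaperone and Ciita as their master regulator. Interferons, interferon gamma above all, raise both pathways through Irf1, Nlrc5 and Ciita, and NF-kappaB acts on class I promoters.

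The promoter sequences are shown because several class I members carry the same pair of short elements in the same order, next to the values of those members given below. RefSeq promoter windows (GRCm38.p6, 250 bases before to 50 after a start) were found for 24 of the 35 genes. In the stretches of H2-K1, H2-D1, H2-Q6 and H2-Q7 capitals mark a kappaB-type site and then an interferon element, each read on either strand. B2m has both in the reverse order, and in H2-M3 and H2-T23 capitals mark an interferon element only. The interferon element is GAANNGAAA, or in B2m and H2-T23 the ISRE (GAAA, any 2 bases, GAAA), and the kappaB site of B2m is a looser form (GGGA, any base, TT, any base, CC). H2-K1 is at chr17:34000417-34000470 on the minus strand, H2-D1 at chr17:35262911-35262964, H2-Q6 at chr17:35424665-35424718, H2-Q7 at chr17:35439010-35439062 and H2-M3 at chr17:37270096-37270153 on the plus strand, B2m at chr2:122147536-122147582 on the plus strand and H2-T23 at chr17:36032804-36032837 on the minus strand. Each is written 5′ to 3′ on the gene's strand.
H2-K1: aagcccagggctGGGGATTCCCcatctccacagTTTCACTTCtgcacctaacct
H2-D1: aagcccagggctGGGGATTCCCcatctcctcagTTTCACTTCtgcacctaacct
H2-Q6: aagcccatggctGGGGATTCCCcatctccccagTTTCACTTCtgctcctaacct
H2-Q7: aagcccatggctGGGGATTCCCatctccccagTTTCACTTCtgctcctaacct
H2-M3: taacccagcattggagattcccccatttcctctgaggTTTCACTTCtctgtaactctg
B2m: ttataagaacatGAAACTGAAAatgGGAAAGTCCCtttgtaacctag
H2-T23: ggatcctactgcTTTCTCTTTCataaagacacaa

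The H2-K1 and H2-D1 stretches differ by 1 edit, and H2-Q6 and H2-Q7 by 1 edit. Their kappaB site, the run of capitals nearest the 5′ end, was in these 4 of 18 class I promoters and in 0.126% of all 27025 genes with a promoter window. GAANNGAAA was in 7 of 18 class I promoters against 8.68% of all genes, and the ISRE in 5 of 18 against 3.99%. The interferon forms can overlap each other, and Psme1 and Ctss held both. The STAT element TTCNNNGAA was in 2 of 18 class I promoters (H2-M3 and Psmb8) against 9.55% of all genes, and the looser kappaB form in 2 of 18 (B2m and H2-Q4) against 1.38%. In all, 12 letter forms were searched, and the 6 described here, CCAAT included, were settled after their matches had been seen, so their shares support nothing beyond the letters. The other 6 gave, among class I promoters and all genes, 8 of 18 and 22.9% for a looser kappaB form with 4 open bases (GGGA, any 4 bases, CC), 11 of 18 and 17.4% for ATTGGNT, 10 of 18 and 6228 genes for TGACG, 3 of 18 and 8.37% for TGACGT, 7 of 18 and 4.7% for CTGATTGG, and 9 of 18 and 9.0% for TGATTGG. These matches are a description of the letters in the windows. They are from the reference strain's sequence, and the sources used here do not name the strain of these cells.

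The class II promoters of the alpha chain gene H2-Aa (chr17:34287855-34287916, minus strand) and the beta chain gene H2-Eb1 (chr17:34305763-34305848, plus strand) are shown with the CCAAT box, the site of the NF-Y factor and part of the class II regulatory unit, in capitals. CCAAT on either strand was in 5 of 6 class II promoters and 13 of 18 class I promoters, against 41.1% of all genes.
H2-Aa: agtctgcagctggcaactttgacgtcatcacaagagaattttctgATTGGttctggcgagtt
H2-Eb1: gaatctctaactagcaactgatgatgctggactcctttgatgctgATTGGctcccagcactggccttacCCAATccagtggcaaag

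Antigen presentation transcripts were lower in the mammosphere library than in the bulk library across the whole group, and the sides differed in what was left. Class I transcripts were still there in mammospheres, at 3.62-fold lower levels in the median gene as a plain ratio. Class II transcripts were at or near 0. Below, a gene counts as higher or lower when log2((FPKM + 1)/(FPKM + 1)) reaches 1 in size, which is 2-fold with 1 FPKM added to each value, and as measured when it has at least 1 FPKM in either library. Of the 35 genes, 33 had a row, 31 were measured and 30 were lower, against 17.2% of all 11630 measured rows. None was higher, against 3.55% of all rows. These shares of all rows, 17.2% lower and 3.55% higher, belong beside every count of lower or higher genes given below for this comparison. The median log2 change was −1.93 for the 31 genes and −0.24 for all measured rows. All 31 were below 0 in sign, against 65.2% of all rows. The authors' deposited table holds a test for 19 of the 33 rows, of which 15 had q under 0.05 and were lower, against 10.2% of all tested rows, and none had q under 0.05 and was higher, against 1.73%.

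**Figure D1:**
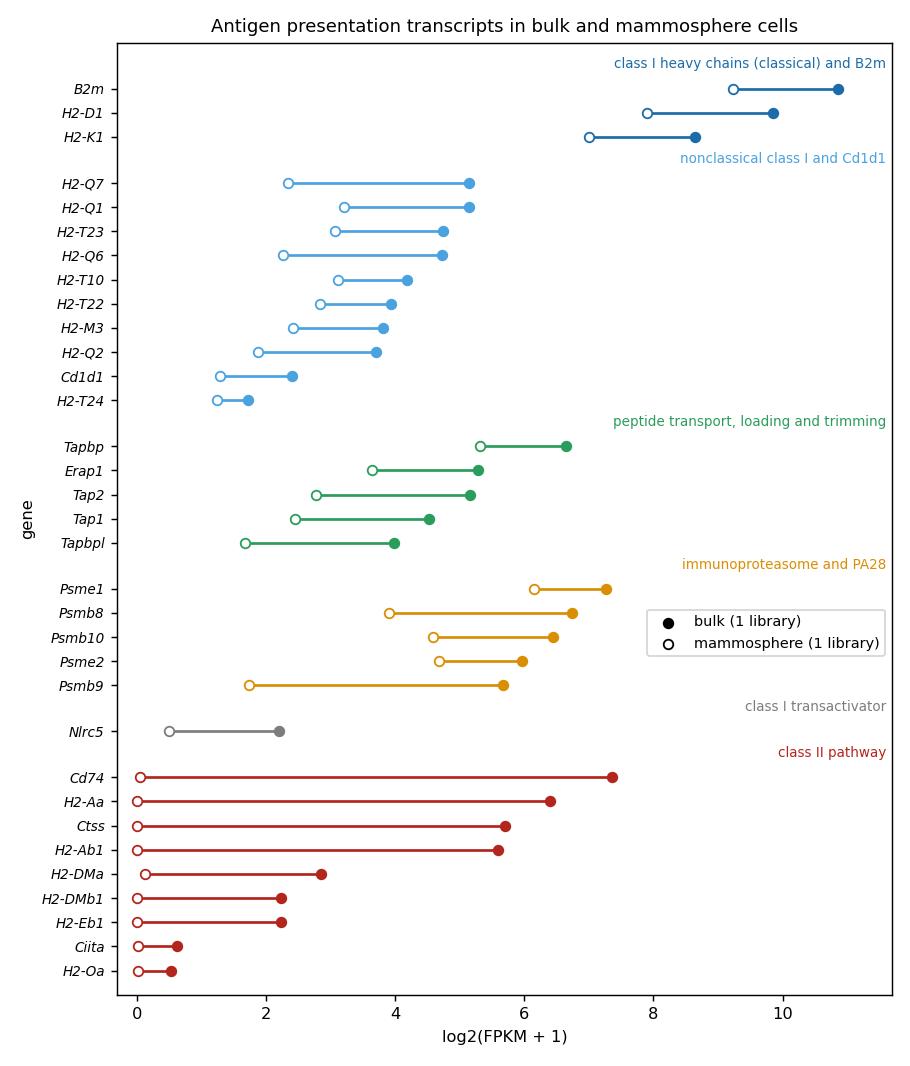
Levels of the 33 genes with a row in the bulk library (filled) and the mammosphere library (open), as log2(FPKM + 1), ordered by bulk level within each role. The open point lies left of the filled one for all 33, and the 9 class II genes lie below 0.1 FPKM in mammospheres.

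The classical heavy chains and B2m were the most abundant members in both libraries. B2m (mm9 chromosome 2, row locus 121945843 to 122011925), the invariant light chain of class I, stood at 1845 FPKM in the bulk and 597 FPKM in the mammosphere library, or rank 16 and rank 53 among all rows. H2-D1 (chromosome 17, 35400038 to 35462354, a row shared with LOC547349 whose interval H2-Q1 also has) was at 925 and 237 FPKM. H2-K1 (chromosome 17, 34132956 to 34137278) was at 398 and 128 FPKM. The log2 changes were −1.63 for B2m, −1.96 for H2-D1 and −1.63 for H2-K1. In the authors' deposited table none of these passed, with q = 0.0943 for B2m, 0.117 for H2-D1 and 0.0809 for H2-K1. The ratio of H2-K1 plus H2-D1 to B2m was 0.717 in bulk cells and 0.610 in mammospheres, so heavy and light chain transcripts differed by similar factors between these libraries.

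Of the 10 nonclassical class I genes with a row, 9 were lower (median −1.53). These are less polymorphic relatives of the classical heavy chains, except Cd1d1, which presents lipids to NKT cells. H2-Q7, encoding a Qa-2 antigen, stood at 34.4 FPKM in the bulk and 4.06 FPKM in the mammosphere library. H2-Q6, its close relative, was at 25.5 and 3.79 FPKM. Both were lower by more than 4-fold, as 14 of the 31 genes were, against 5.54% of all measured rows. H2-Q1 was at 34.2 and 8.22 FPKM, and H2-Q2 at 12.1 and 2.66. H2-T23, which encodes the Qa-1 molecule seen by natural killer cell receptors, was at 25.7 and 7.36 FPKM. H2-M3, which presents N-formylated peptides, was at 13.1 and 4.37 FPKM. H2-T10 was at 17.1 and 7.71 FPKM and H2-T22, in a row shared with H2-T9, at 14.3 and 6.16 FPKM. These T-region genes are ligands of gamma delta T cells, and they lay closest to the 2-fold limit, which neither reached when the libraries were rescaled to equal medians or upper quartiles. Cd1d1 was at 4.31 and 1.43 FPKM. H2-T24, at 2.30 and 1.36 FPKM (log2 −0.49), was the 1 measured member that did not reach 2-fold. Heavy chain genes are close copies of each other, and the sources used here do not say how reads matching several of them were assigned, so the values of single H2 genes are uncertain.

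All 5 genes of peptide transport, loading and trimming were lower (median −2.07). The transporter subunits Tap1 and Tap2 were at 21.997 and 34.6 FPKM in bulk cells and at 4.49 and 5.81 FPKM in mammospheres. Tapbpl, the tapasin-related peptide editor TAPBPR, was at 14.8 and 2.19 FPKM, 6.77-fold lower as a plain ratio. Tapasin itself, Tapbp, was at 99.4 and 38.7 FPKM, the smallest difference of the 5 (log2 −1.34), and the authors' deposited table gives it q = 2.85e-05. The aminopeptidase Erap1 was at 37.8 and 11.4 FPKM. The general chaperones of class I folding did not share a direction: of 6, 1 was lower by 2-fold or more, the chaperone Hspa5 at 2607 and 429 FPKM, and the median was −0.44.

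All 5 immunoproteasome and PA28 genes were lower (median −1.86), and Psmb9 had the largest difference on the class I side. Psmb8, Psmb9 and Psmb10 replace the 3 catalytic subunits of the standard proteasome under interferon and in immune cells, and change which peptides are cut. Psmb9 stood at 50.05 FPKM in the bulk and 2.32 FPKM in the mammosphere library. That is a plain ratio of 21.5-fold (log2 −3.94), and the authors' deposited table gives q = 1.97e-06. Psmb8 was at 105 and 14.0 FPKM, and Psmb10 at 86.4 and 23.1. The standard partners stayed within 1.5-fold: Psmb5 was at 115 and 155 FPKM (in a row shared with a microRNA), Psmb6 at 84.0 and 87.0, and Psmb7 at 260 and 258. None of the 15 standard core and PA28 gamma genes reached 2-fold in either direction (median −0.02). The ratio of Psmb8 to Psmb5 was thus 0.915 in bulk cells and 0.0904 in mammospheres, that of Psmb9 to Psmb6 0.596 and 0.0267, and that of Psmb10 to Psmb7 0.333 and 0.0896. The PA28 activator subunits differed less, with Psme1 at 153 and 70.0 FPKM and Psme2 at 61.5 and 24.7.

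**Figure D2:**
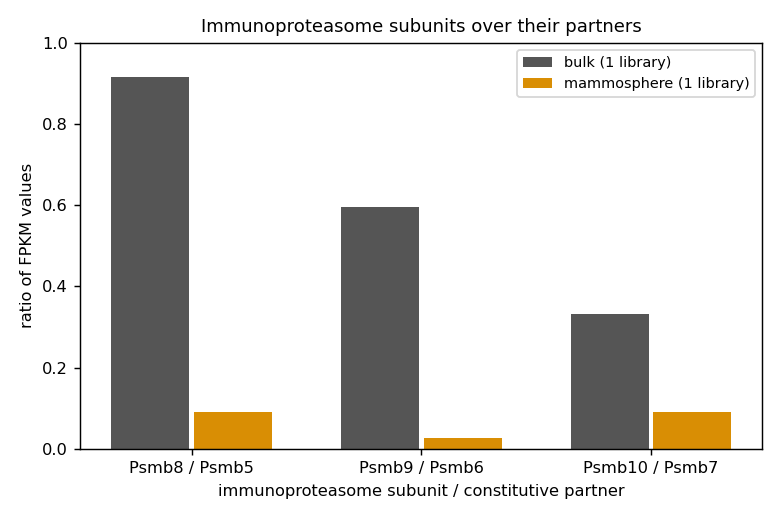
Ratio of the FPKM of each immunoproteasome subunit to that of the standard subunit it replaces, in the bulk and the mammosphere library, with 1 library per bar. All 3 ratios were lower in mammospheres, from 0.915 to 0.0904 for Psmb8, 0.596 to 0.0267 for Psmb9 and 0.333 to 0.0896 for Psmb10.

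Tap1 and Psmb9 are transcribed away from each other, and their RefSeq starts enclose 225 bases (chr17:34187331-34187555, GRCm38.p6). The whole stretch is shown, on the Tap1 strand with CCAAT in capitals, because it lies between the starts of 2 members. As plain ratios, Tap1 was 4.90-fold and Psmb9 21.5-fold lower in mammospheres, where Psmb9 was at 2.32 FPKM. With 5 FPKM added the log2 changes were −1.51 and −2.91. What part the stretch has in these values was not tested.
Tap1 and Psmb9: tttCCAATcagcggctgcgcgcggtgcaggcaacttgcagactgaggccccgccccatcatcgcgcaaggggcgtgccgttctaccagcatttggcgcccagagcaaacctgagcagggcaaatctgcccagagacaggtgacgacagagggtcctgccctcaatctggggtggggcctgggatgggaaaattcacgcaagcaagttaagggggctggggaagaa
The row of Tap1 was not tested by the authors.

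Nlrc5, the transactivator of class I genes, stood at 3.59 FPKM in the bulk and 0.414 FPKM in the mammosphere library; the authors ran no test on it. The interferon pathway genes that act on these promoters differed unevenly. Irf1 was at 164 and 16.9 FPKM, whereas Stat2 was at 5.53 and 4.87 and Irf9 at 18.9 and 14.0. Of 19 genes for interferon receptors, JAK, STAT and IRF factors, 9 passed 2-fold downward and none upward (median −0.95). Over all measured rows the shares were 17.2% lower and 3.55% higher, here and for the counts that follow. Ifng, the interferon gamma gene itself, was at 2.71 FPKM in bulk cells and listed at 0 in mammospheres. Of 31 measured interferon-induced genes outside antigen presentation, 12 were lower and none was higher (median −0.65), the largest difference being that of the chemokine Cxcl10 at 131 and 8.79 FPKM. Of 9 NF-kappaB genes, 8 were lower (median −2.29), with the inhibitor Tnfaip3 at 109.5 and 1.71 FPKM. None of the 8 enhanceosome factors that bind MHC promoters reached 2-fold (median 0.16), with Creb1 at 6.04 and 10.3 FPKM.

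Class II transcripts were present in bulk cells and nearly missing in mammospheres. All 9 genes had a row, 7 were measured and all 7 were lower by more than 4-fold (median −5.59). These 7 reached 1 FPKM in bulk cells only, so the minimum by itself favours lower calls and a lower median. Without it, the class II median lay below the class I median by −1.04 on the log2 scale, rather than −3.90. Their summed level was 360 FPKM in the bulk and 0.167 FPKM in the mammosphere library. Cd74, the invariant chain, was at 164 and 0.0353 FPKM in a row shared with a microRNA. The chains of I-A, H2-Aa and H2-Ab1, were at 82.9 and 47.4 FPKM in bulk cells, with H2-Aa listed at 0 and H2-Ab1 at 0.00726 FPKM in mammospheres. H2-Eb1, an I-E chain, was at 3.69 and 0.00726 FPKM. The peptide exchange factor H2-DM had H2-DMa at 6.19 and 0.0883 FPKM and H2-DMb1 at 3.72 FPKM and listed at 0. Ctss, the cathepsin that trims the invariant chain, was at 50.8 FPKM and listed at 0. H2-Oa, a modulator of H2-DM, and Ciita were under the 1 FPKM minimum in both libraries, at 0.44 and 0.0105 FPKM and at 0.543 and 0.0184 FPKM. The authors' deposited table tests 4 of these 9 rows, and all 4 had q under 0.05. Among other lysosomal proteases and the thiol reductase of the class II route, 1 of 7 was lower, against 17.2% of all measured rows. It was Ctsh at 3.35 and 0.0179 FPKM, and the median of the 7 was −0.21.

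Markers of other cell types were lower in the same comparison. Of 22 leukocyte and myeloid markers, 20 were lower by 2-fold or more, and their summed level was 529 FPKM in the bulk and 279 FPKM in the mammosphere library. That remainder lay mostly in Arhgdib (92.5 and 168 FPKM) and Cd68 (35.5 and 101), named, like the markers listed at 0 below, after their values were seen. All 22 reached 1 FPKM in bulk cells and 3 did in mammospheres, so the minimum by itself favours lower calls among them. The defining markers among them were Ptprc at 6.64 and 0.0184 FPKM and Csf1r at 7.20 and 0.105. Tyrobp, Fcer1g, Cd53, Emr1, C1qa, C1qb and C1qc were listed at 0 in mammospheres, and the largest difference was in Lyz2, at 122 and 0.0737 FPKM. Itgax, at 2.14 and 0.34 FPKM, is from a separate list of 7 dendritic cell markers, of which 5 were under the minimum. All 6 measured T and natural killer markers were lower, 8 of the 9 being listed at 0 in mammospheres. These 6 reached 1 FPKM in bulk cells only, so the minimum by itself favours lower calls among them. Fibroblast markers (7 of 8 lower, summed level 320 and 1.03 FPKM) were lower too, and likewise reached 1 FPKM in bulk cells only. In RNA from whole cultures, fewer cells of a type and less RNA per cell cannot be told apart, and the part these cells have in the bulk levels was not tested. In the mammosphere library class I members summed to 1206 FPKM, of which 962 FPKM lay in B2m, H2-D1 and H2-K1. There 23 of 24 class I members were at 1 FPKM or more. Which cells of the culture these transcripts came from was not tested.

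**Figure D3:**
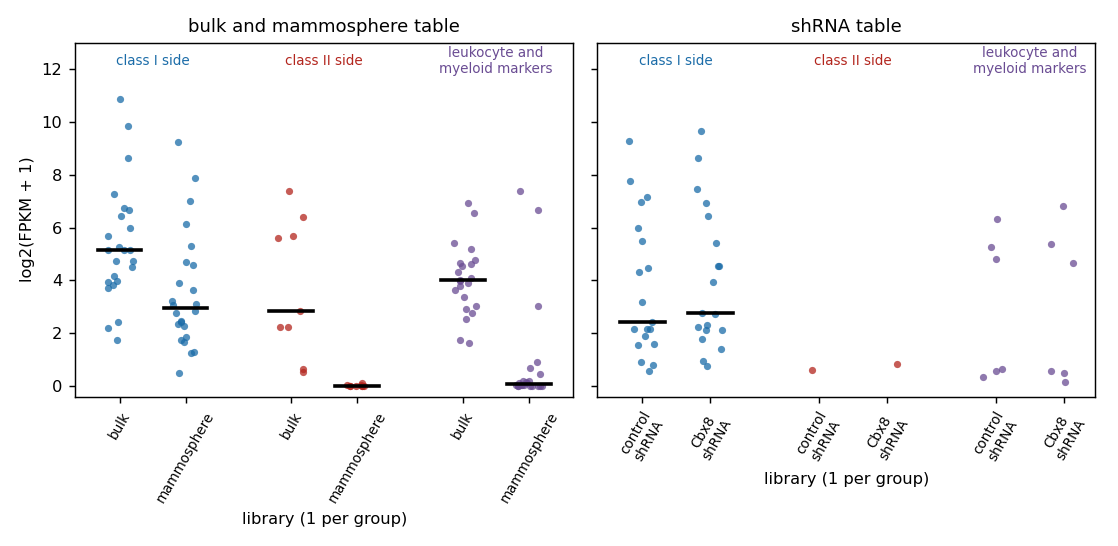
Levels, as log2(FPKM + 1), of class I genes, class II genes, and leukocyte and myeloid markers in each library, with bars at the medians where 7 or more genes had a row. In mammospheres all 9 class II genes lie below 1 FPKM and 3 of 22 markers at 1 FPKM or more, against 23 of 24 class I genes; in the table of shRNA cultures, 1 of 9 class II genes and 6 of 22 markers had a row.

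Mammary epithelial markers were mostly lower in mammospheres and of both signs among the shRNA cultures. Of 10 mammary epithelial markers, 7 were measured in the first table and 5 were lower in mammospheres, with a summed level of 938 FPKM in the bulk and 73.9 FPKM in the mammosphere library. All 7 reached 1 FPKM in bulk cells and 3 did in mammospheres, so the minimum by itself favours lower calls here too. Among the shRNA cultures, 5 were measured and 1 was higher with the Cbx8 hairpin, against 0.299% of all measured rows. None was lower, against 0.449%. The higher marker was Krt14 at 1.09 and 10.5 FPKM, and the sums over the list were 439 and 443 FPKM. The members named next were chosen after their values were seen, and are given for bulk, mammosphere, control and knockdown libraries in that order. The keratins Krt8, Krt18 and Krt19 were present in each library, while Krt5 had no row among the shRNA cultures. Krt8 was at 334, 5.14, 63.2 and 79.3 FPKM, Krt18 at 570 and 58.2, then 261 and 256, and Krt19 at 9.08, 9.65, 90.1 and 72.3. The surface genes Epcam, at 1.06, 0.0908, 0.338 and 0.0427 FPKM, and Cdh1, at 1.04, 0.0135, 0.283 and 0.206 FPKM, were low in each, while Cldn3 was at 1.77, 0.276, 22.8 and 24.9 FPKM.

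Class I members were lower both inside and outside the MHC region. On mm9 chromosome 17, 16 class I genes were measured and 15 were lower (median −1.89). On other chromosomes 8 of 8 were lower (median −1.63). Other measured rows inside the span from Tapbp to H2-M3 (34056422 to 37411430), without any H2 symbol, numbered 86, of which 21 were lower (24.4%) and 3 higher (median −0.28). Among MHC and class I-like genes outside the list of 35, 6 of 8 measured were lower, including the H2-T9 row already counted with H2-T22. The largest difference there was in the class II gene H2-DMb2, at 4.68 FPKM in bulk cells and listed at 0 in mammospheres.

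No antigen presentation gene differed by 2-fold between the Cbx8 knockdown and the control library. The log2 values were positive for every measured heavy chain gene, and of both signs for the peptide transport and proteasome genes. Cbx8 itself, a Polycomb chromodomain gene and the target of the hairpin, was at 4.74 FPKM with the control hairpin and 1.23 FPKM with the Cbx8 hairpin. Of the 35 genes, 20 had a row and 17 were measured, all on the class I side. None reached 2-fold, against 0.299% of all 10685 measured rows higher and 0.449% lower. At a 1.5-fold limit 4 of 17 were higher, against 2.1% of all rows, and none was lower, against 2.18%. In sign, 13 of 17 were positive, against 48.8% of all rows, and the median log2 change was 0.36, against −0.006 for all rows. In the authors' deposited table no member had q under 0.05, against 0.128% of all rows higher and 0.0769% lower, and 2 of 20 had p under 0.05 before adjustment, against 3.66% of all rows.

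**Figure D4:**
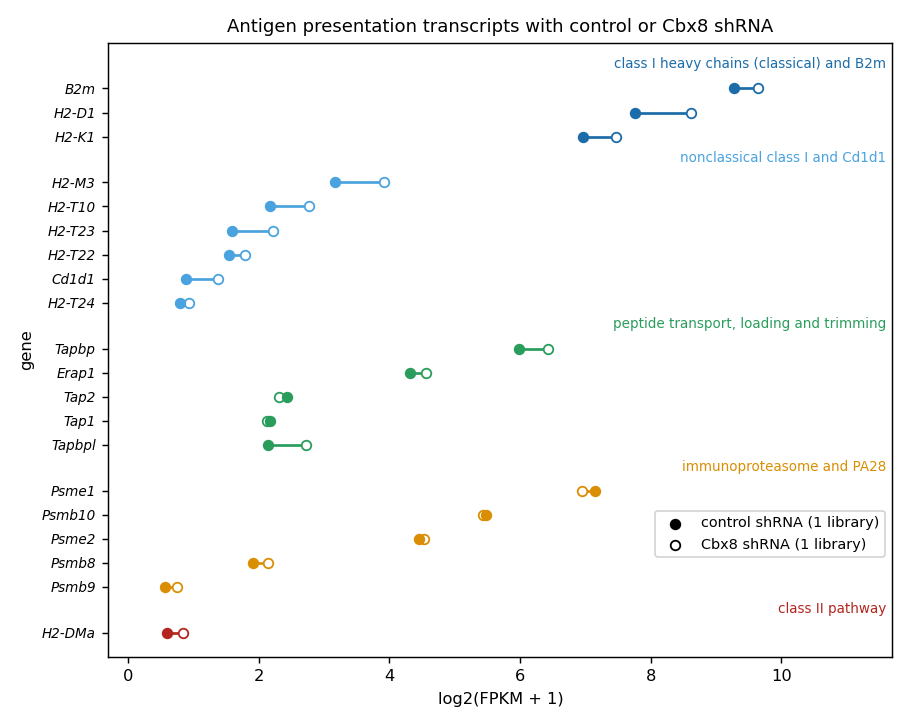
Levels of the 20 genes with a row in the control shRNA library (filled) and the Cbx8 shRNA library (open), as log2(FPKM + 1). Open points lie to the right for B2m, all heavy chain genes and Cd1d1, and to the left for Tap1, Tap2, Psmb10 and Psme1.

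H2-D1 was at 215 FPKM with the control hairpin and 393 FPKM with the Cbx8 hairpin (log2 0.86), the largest difference among the members, with p = 0.0012 and q = 0.246 in the authors' deposited table. H2-K1 was at 123 and 177 FPKM (log2 0.52). B2m was at 621 and 798 FPKM (log2 0.36). None of the 3 reached 2-fold, and the ratio of H2-K1 plus H2-D1 to B2m was 0.545 with the control hairpin and 0.715 with the Cbx8 hairpin. Among nonclassical genes, H2-M3 was at 7.96 and 14.1 FPKM, with p = 0.0303 and q = 0.999 in the authors' deposited table. H2-T23 was at 2.03 and 3.65 FPKM and H2-T10 at 3.52 and 5.85, and these with H2-D1 and H2-M3 are the 4 genes past 1.5-fold. H2-T22 was at 1.93 and 2.46 FPKM and Cd1d1 at 0.857 and 1.60. H2-T24 was under the minimum at 0.737 and 0.902 FPKM. H2-Q1, H2-Q2, H2-Q6 and H2-Q7 had no row in this table, which holds no row at 0.

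Processing genes did not share a direction. Tapbp was at 62.6 FPKM with the control hairpin and 85.1 FPKM with the Cbx8 hairpin, Tapbpl at 3.41 and 5.59, and Erap1 at 18.8 and 22.5. Tap1 was at 3.51 and 3.35 FPKM and Tap2 at 4.39 and 3.96. Psmb8 was at 2.75 and 3.40 FPKM, Psmb10 at 43.6 and 42.1, and Psmb9 under the minimum at 0.474 and 0.679. Psme1 was at 141 and 122 FPKM and Psme2 at 21.0 and 22.1. The group medians were 0.52 for the 3 classical genes, 0.60 for 5 nonclassical genes, 0.25 for 5 transport and loading genes and 0.01 for 4 proteasome genes. The 15 standard proteasome genes lay at a median of 0.03, with Psmb6 at 144 and 149 FPKM and Psmb7 at 344 and 362.

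**Figure D5:**
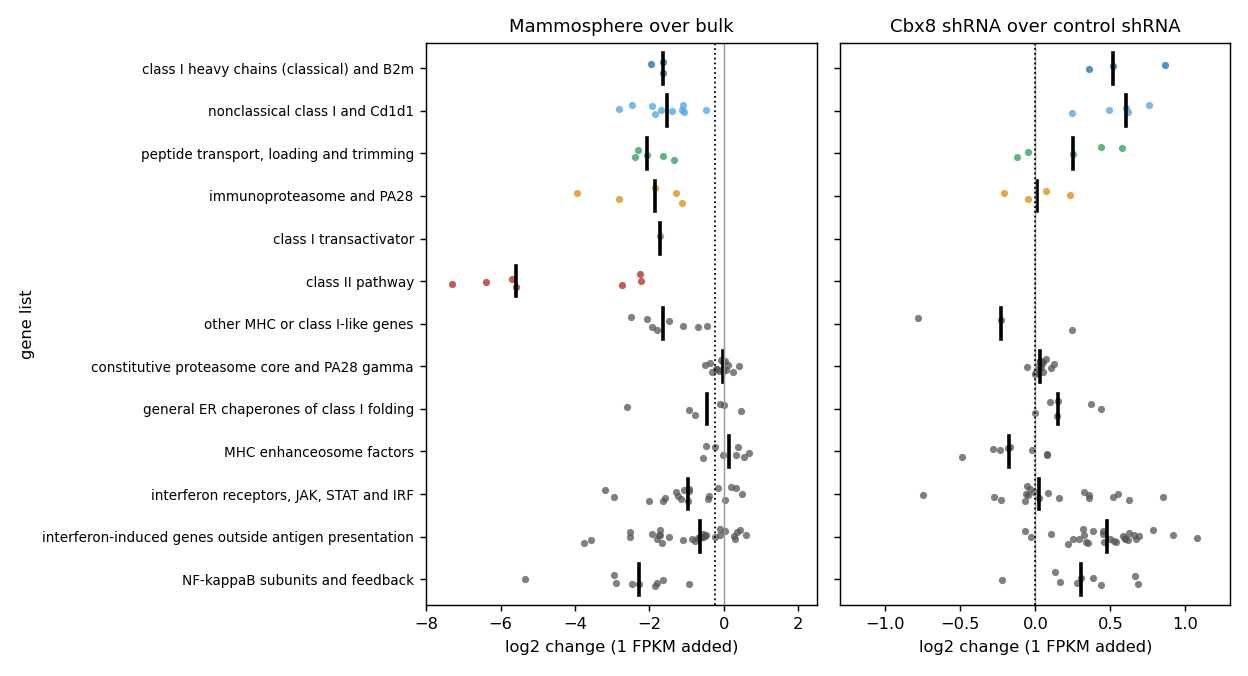
Log2 change with 1 FPKM added for each measured gene, by list, in mammospheres over bulk cells (left) and Cbx8 shRNA over control shRNA (right), on axes of different range. Black bars are list medians and dotted lines the median of all measured rows, −0.24 on the left and −0.006 on the right.

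The interferon receptor and factor genes were of both signs. Over all measured rows 48.8% were positive, and 0.299% were higher and 0.449% lower by 2-fold or more. These shares belong beside the counts given next for the shRNA cultures. Stat2 was at 5.32 FPKM with the control hairpin and 7.08 FPKM with the Cbx8 hairpin and Irf9 at 13.9 and 20.3, while Irf1 was at 29.4 and 28.3. Nlrc5, Ciita and Ifng had no row. Among 19 receptor, JAK, STAT and IRF genes none reached 2-fold and 10 were positive (median 0.02), with the largest difference in Irf7 at 5.11 and 10.02 FPKM. Of 28 measured interferon-induced genes outside antigen presentation 26 were positive (median 0.48) and 1 passed 2-fold, the protease Usp18 at 4.80 and 11.2 FPKM. Among NF-kappaB genes 8 of 9 were positive and the median was 0.31, with Relb at 6.35 and 10.8 FPKM. The enhanceosome factors had a median of −0.18 and general chaperones 0.15. Class II genes were nearly all without a row: 1 of 9 had one, H2-DMa at 0.513 and 0.794 FPKM. Ptprc, Csf1r and Itgax had no row either, and of 22 leukocyte and myeloid markers 3 were at 1 FPKM or more, among them Arhgdib at 78.4 and 110 FPKM and Cd68 at 37.6 and 23.9. On the span of chromosome 17 between Tapbp and H2-M3, 70 other rows had a median of 0.01, and 54.3% were positive.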

How the data were processed

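The submitters' processing notes name mm9 as the build, TopHat 1.4.0 and Cuffdiff (version listed as 0.0.7), beside Cufflinks 1.3.0 and FastQC 0.10.0, and the sources used here give no settings. The bulk library was read from the column headed D0MS, since it is the labels' 1 sample of day 0. The authors deposited 2 Cuffdiff tables with FPKM per gene for 1 pair of libraries each, and their own p-value and q-value per row. Depth is unknown, so no counting interval was computed. The knockdown table lists no gene at 0, so silent genes may be missing from it. The tables were made separately, and fold changes were taken within a table.

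Each gene was taken from the row naming it, the row with the highest mean FPKM if several, and described by log2((FPKM + 1)/(FPKM + 1)). With 1 library per group no test was run. The counting step was tested on simulated pairs with planted 4-fold changes in genes at 5 FPKM or more. That test does not cover calls near 2-fold or near 1 FPKM. The members and lists were chosen with earlier results of these data known. All members were named, with the most different gene and stated partner genes of each other list, of which 2 are not reported here. Genes named outside this rule are marked as chosen after their values were seen. Promoters were searched with 12 motif forms, of which 6 were kept after the matches had been seen. Alternatives were other pseudocounts, FPKM minimums, fold limits, scalings, row choices and the authors' calls. Computation used Python 3.11.15, numpy 2.4.6 and pandas 2.3.3.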

Additional observations from a re-analysis of the deposited data

How the results depend on the processing

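No paired analysis was possible because each group has 1 library. In mammospheres against bulk cells, 30 of 31 measured genes were lower. The number lower was 14 of 31 at a 4-fold limit, 19 of 19 among rows with status OK, and 15 of 19 by the authors' q. It lay between 23 and 31 under the other 10 alternatives run, and no member was higher under any alternative. Centred on the median row expressed in both libraries (log2 −0.19), 26 of 31 were lower, against 13.3% of all rows; with upper quartiles set equal, 25 of 31 were lower, against 13.4%. H2-T10, H2-T22, Cd1d1 and Psme1 lost 2-fold under both scalings. With a pseudocount of 5 FPKM 7 members lost it, namely H2-T10, H2-T22, H2-M3, Cd1d1, Nlrc5, H2-Eb1 and H2-DMb1. The class II median lay below the class I median by −3.90 on the log2 scale, a gap that was −6.94 with a pseudocount of 0.1 FPKM, −1.96 with 5 FPKM and −1.04 without the FPKM minimum. In the knockdown comparison the count of members at 2-fold was 0 in both directions under each alternative except the 1.5-fold limit, which gave 4 higher. There 13 of 17 were positive under both other pseudocounts and both scalings, with medians from 0.21 to 0.37. Counting the H2-Gs10 row as H2-Q4, chosen after seeing the data, gave 31 of 32 lower in mammospheres.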

Other observations

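H2-Gs10, which the RefSeq table (GRCm38.p6) lists among the synonyms of H2-Q4, had a row of its own. Its levels were 183 and 32.8 FPKM for bulk and mammosphere cells, and 10.3 and 18.6 FPKM for the control and the Cbx8 hairpin. It went the way of the classical heavy chains in both comparisons, and its promoter window in that table, under H2-Q4, held GAANNGAAA and the looser kappaB form.

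Set side by side across the separately made tables, which allows no fold change, classical class I levels in the mammosphere and the control shRNA library lay close together: H2-K1 at 128 and 123 FPKM, H2-D1 at 237 and 215, and B2m at 597 and 621. Other class I members were mixed, as in H2-T23 at 7.36 and 2.03 FPKM, Tapbp at 38.7 and 62.6, and Psme2 at 24.7 and 21.0. These examples were chosen after their values were seen. Immunoproteasome subunits did not keep 1 order, with Psmb8 at 14.0 and 2.75 FPKM, Psmb9 at 2.32 and 0.474, and Psmb10 at 23.1 and 43.6. In bulk cells the same genes were at 105, 50.05 and 86.4 FPKM, so Psmb8 stood above Psmb10 in the bulk library and below it in the other 3 libraries. The Psmb5 row, shared with a microRNA, was at 115 and 155 FPKM in the first table and at 8515 and 8197 in the second, and no ratio to it was used there.

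Ligands that signal to T and natural killer cells beside MHC molecules went different ways in mammospheres. Of 9 measured genes 3 were lower and 1 higher by 2-fold or more, against 17.2% and 3.55% of all measured rows. The adhesion ligand Icam1 stood at 28.4 FPKM in the bulk and 0.11 FPKM in the mammosphere library, whereas the Raet1 row (the 1 higher, named after its value was seen), which merges several near-identical ligands of the NKG2D receptor, was at 0.793 and 7.17 FPKM. In the knockdown comparison none of 6 reached 2-fold, against 0.299% of all measured rows higher and 0.449% lower. The largest difference was in Cd47, a ligand that restrains phagocytosis, at 39.8 and 59.7 FPKM.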
